A study of Mus musculus with 20 samples.

Results

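The genes described here are 10 that are commonly used to recognise resident macrophages in skin: Adgre1, Csf1r, Cd163, Mrc1, Cd68, Mertk, C1qa, C1qb, C1qc and Retnla. They were taken by symbol, and all 10 were found in both deposited tables, among 19234 genes in the AD table, 19501 in the ACD table and 18835 in both. Expression was measured by RNA sequencing of oligo(dT)-selected RNA from whole ear tissue of C57BL/6 mice, aged 6 to 7 weeks, in a pair of disease models labelled AD and ACD, abbreviations that the labels leave unexplained along with how the disease was induced. AD mice received 0.7 mg/kg of the GSK3 inhibitor SB415286 intraperitoneally, ACD mice received 2 mg/kg, and ears were collected after 4 h. The 20 libraries formed 4 groups of 5, which are SB415286-injected AD mice, AD controls, SB415286-injected ACD mice and ACD controls. The sample labels call the controls untreated, whereas the design text calls them vehicle controls, and the protocol text names the AD model beside both doses. No gene deletion or transgene is named for any group.

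Resident macrophages of the skin live among the collagen bundles and vessels of the dermis, where they clear dead cells, take up debris and sense damage. Csf1r encodes the receptor for CSF1 and IL-34, on which most tissue macrophages depend for survival. Adgre1 encodes F4/80, the classic surface marker of mouse macrophages, and Cd68 encodes a glycoprotein of their lysosomes. Mrc1 (CD206, a mannose receptor) and Cd163 (a receptor for haptoglobin-haemoglobin complexes) are endocytic receptors, and Mertk is a receptor kinase for apoptotic cells bound by Gas6 or protein S. C1qa, C1qb and C1qc encode the chains that assemble into C1q, the recognition subunit of the classical complement pathway, which macrophages make within tissues. Retnla (RELMα) is a secreted protein that IL-4 and IL-13 induce in mouse macrophages through STAT6. Several of these genes are not exclusive to macrophages: Cd68 and Csf1r are also transcribed in monocytes, Mrc1 in lymphatic endothelium and Retnla in other cells of the skin, including adipocytes.

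The C1q genes lie side by side on chromosome 4 (GRCm38.p6, RefSeq), with C1qb, C1qc and C1qa together spanning 18719 bases at chr4:136880126-136898844, separated by 3600 and 2979 bases. Promoter sequences, running from 250 bases before to 50 bases after the annotated start, were present in the RefSeq table for 7 of the 10 genes. Those of C1qb and C1qc are shown because these neighbours gave the closest pair of expression patterns, and that of Retnla because its level differed most between groups. All are from GRCm38.p6 and are written 5′ to 3′ on the strand of the gene. Capitals mark matches to the core letters of the macrophage factor PU.1 (GAGGAA) and, in Retnla, also to a STAT6-type motif (TTC and GAA with 4 bases between them) and a C/EBP-type motif (TTGCNNAA), all searched on both strands.
C1qb: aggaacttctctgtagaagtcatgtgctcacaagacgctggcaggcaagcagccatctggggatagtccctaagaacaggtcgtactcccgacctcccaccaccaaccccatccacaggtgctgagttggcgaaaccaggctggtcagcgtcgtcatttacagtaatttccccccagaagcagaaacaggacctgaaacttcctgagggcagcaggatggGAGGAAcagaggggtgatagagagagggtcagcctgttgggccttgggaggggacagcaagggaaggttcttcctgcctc
C1qc: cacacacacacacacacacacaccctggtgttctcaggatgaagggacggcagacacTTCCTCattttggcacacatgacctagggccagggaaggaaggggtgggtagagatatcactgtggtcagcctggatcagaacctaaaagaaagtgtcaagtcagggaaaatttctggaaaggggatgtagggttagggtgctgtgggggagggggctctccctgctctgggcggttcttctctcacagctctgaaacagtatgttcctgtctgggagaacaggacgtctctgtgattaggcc
Retnla: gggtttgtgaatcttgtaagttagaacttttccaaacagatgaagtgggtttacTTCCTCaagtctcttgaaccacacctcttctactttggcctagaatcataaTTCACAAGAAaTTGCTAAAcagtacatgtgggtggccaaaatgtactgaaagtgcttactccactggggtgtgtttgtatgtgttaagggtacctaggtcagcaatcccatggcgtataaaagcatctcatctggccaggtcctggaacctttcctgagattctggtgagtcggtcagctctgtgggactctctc
The windows are chr4:136886151-136886450 on the minus strand for C1qb, chr4:136892865-136893164 on the minus strand for C1qc and chr16:48842359-48842658 on the plus strand for Retnla. Counting from the annotated start, the PU.1 core in C1qb lies at -30 to -25, and those in C1qc and Retnla are on the opposite strand (TTCCTC) at -193 to -188 and -196 to -191. In Retnla the STAT6-type match (TTCACAAGAA) at -145 to -136 and the C/EBP-type match (TTGCTAAA) at -134 to -127 do not overlap each other. Of all 32851 promoters in the table, 28.3% held the PU.1 core, 6.95% the STAT6-type motif and 10.8% the C/EBP-type motif. Of the 7 members with a promoter sequence, 5 held the PU.1 core (Mrc1, Cd68, C1qb, C1qc and Retnla), 1 the STAT6-type motif (Retnla) and 2 the C/EBP-type motif (Cd68 and Retnla), while Cd163 and Mertk held none of them. The motifs were chosen with these sequences in view, and a match is a run of letters, not evidence of binding.

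AD libraries held 18.2 to 20.9 M reads (M, mega) and ACD libraries 18.8 to 20.2 M. AD control 6 correlated better with the SB415286 libraries of its model (median r = 0.977 across genes) than with the other controls (0.961), and AD SB415286 library 7 had the lowest correlation with its own group (0.947). AD results are therefore also given without both libraries, a choice that by itself tends to widen the gap between groups. The tissue of origin was visible in keratinocyte markers, whose summed level was 8566 to 43810 counts per M (CPM) over the 20 libraries, and in cartilage and muscle markers, which were also found in every library. The labels do not state that each library came from a separate mouse, so p-values measure the spread between libraries. In bulk tissue, fewer macrophages and less RNA per macrophage cannot be told apart.

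Per length of transcript, the C1q genes were the most abundant of the 10 in every group. In ACD SB415286 ears C1qb averaged 511 ± 96.9 FPKM, C1qc 366 ± 63.3 and C1qa 314 ± 75.4 (SD, n = 5). In ACD controls the averages were 626 ± 31.9 for C1qb, 436 ± 28.1 for C1qc and 401 ± 35.6 for C1qa. In the AD model the group means were 348 ± 108 FPKM for C1qb, 363 ± 99.8 for C1qc and 405 ± 104 for C1qa in SB415286 ears, against 318 ± 78.0, 325 ± 82.1 and 367 ± 91.1 in controls, and the means of the trio differed by less than the spread within a group. Within each of the 10 AD libraries, however, C1qa was the highest. The ratio of C1qb to C1qa FPKM was 0.7925 to 0.9177 in AD SB415286 ears and 0.7996 to 0.9423 in AD controls, and that of C1qc to C1qa was 0.842 to 0.970 in AD SB415286 ears and 0.840 to 0.944 in AD controls. Cd68 came next in every group (185 ± 43.0 FPKM in AD SB415286 ears, 158 ± 26.5 in AD controls, 251 ± 47.8 in ACD SB415286 ears and 261 ± 11.5 in ACD controls). Mrc1, Csf1r and Cd163 followed, between 28.9 and 96.7 FPKM as group means. In ACD controls Mrc1 and Csf1r lay within their spread (86.9 ± 9.62 and 95.5 ± 9.72 FPKM), whereas in AD controls Mrc1 was the higher (93.5 ± 14.1 and 71.4 ± 13.8 FPKM). Adgre1 averaged 14.7 to 29.7 FPKM and Mertk 5.46 to 13.3 FPKM across the groups. Retnla had the lowest mean in each group, close to Mertk in AD controls, at 1.53 ± 0.516 FPKM in AD SB415286 ears, 9.73 ± 11.5 in AD controls, 0.768 ± 0.989 in ACD SB415286 ears and 0.698 ± 0.570 in ACD controls.

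**Figure D1:**
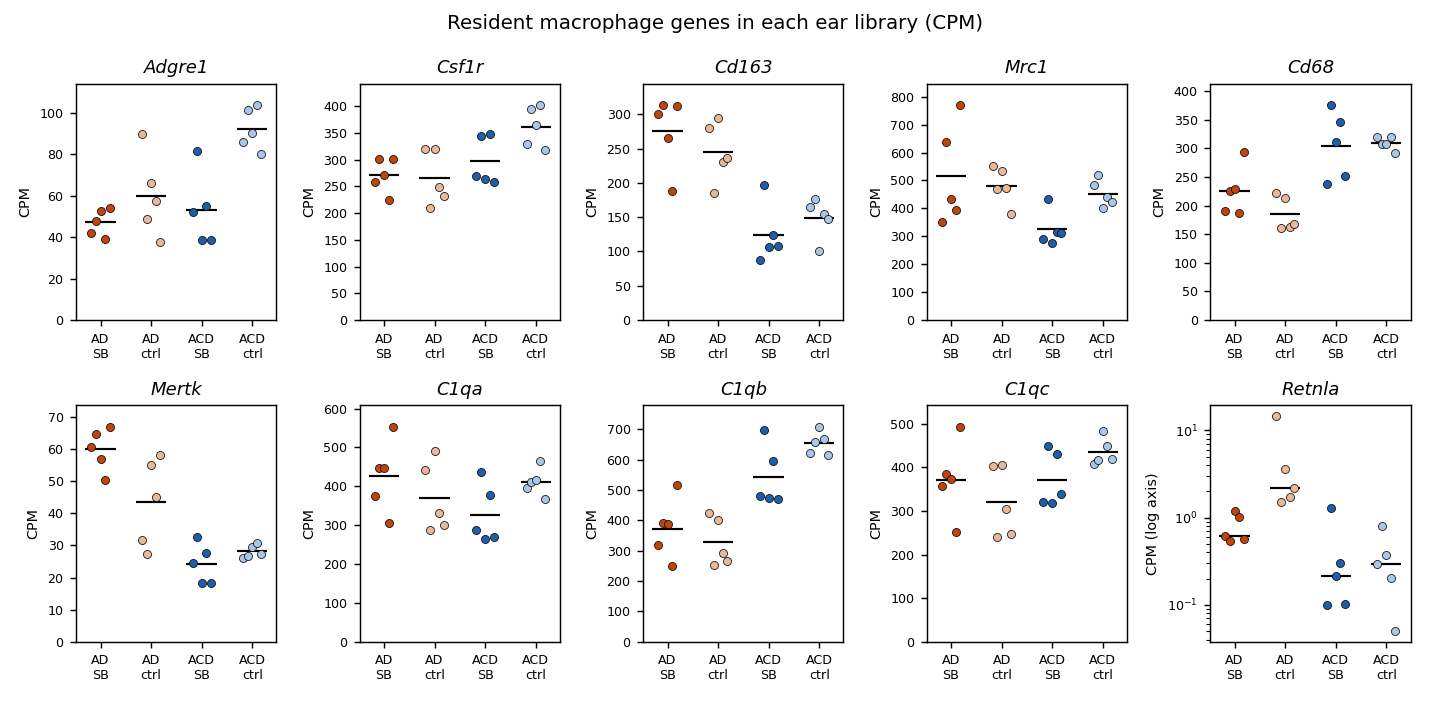
Normalised read counts (CPM, scaled with TMM factors) of the 10 resident macrophage genes in each library, with SB415286-injected (SB) and control (ctrl) groups of the AD and ACD models side by side; each point is a library, horizontal lines are group means, and for Retnla, on a log axis, group medians. The 5 AD SB415286 libraries lie below all 5 AD controls for Retnla, and the ACD SB415286 libraries lie mostly below the ACD controls for Adgre1 and Mrc1.

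The first comparison asked how these genes differed between the ears of SB415286-injected AD mice and those of AD controls. Inhibition of GSK3 itself was not tested. None of the 10 passed edgeR's quasi-likelihood test at a Benjamini-Hochberg adjusted p under 0.05, where 1.23% of 15149 genes tested did. At an unadjusted p under 0.05 there were 2 of 10, Retnla and Mertk, against 20.1% of all genes. DESeq2 called 1 (Retnla), where it called 7.68% of the genes it gave an adjusted p, and limma on FPKM values called none, where it called 1.68% of the genes it tested. Fold changes were positive for 8 genes and negative for 2, with a median of 0.18 on the log2 scale, against 0.00124 over all genes. Without AD control 6 and AD SB415286 library 7 the split was 5 positive and 5 negative, with a median of -0.01, and 1 gene passed, Retnla, where 25.7% of 15163 genes passed.

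Retnla, the IL-4 and IL-13 response gene, showed the largest difference of the 10 genes. It had 0.608, 0.535, 1.19, 1.00 and 0.568 CPM in AD SB415286 ears, against 14.5, 1.50, 3.58, 1.73 and 2.18 CPM in AD controls. Every SB415286 library was below every control, a pattern in the lower direction that 2.37% of all genes tested shared, and it rested on 76 reads in all in SB415286 libraries against 486 in controls, 300 of them in control 1. The log2 fold change was -2.59 ± 0.67 (SE), which missed the threshold with edgeR's quasi-likelihood test (adjusted p = 0.0817). The call turned on the method and on single libraries. The adjusted p was 0.00226 with DESeq2 (log2 fold change -2.58), 0.0266 with edgeR in 1 fit of all 20 libraries (-2.58), where 9.31% of genes passed, and 0.0404 with edgeR without AD control 6 (-2.77), where 9.30% passed. Without AD control 1 the log2 fold change was -1.52 (adjusted p = 0.12, edgeR). Without both doubtful libraries it was -2.68 (adjusted p = 0.032, edgeR), where 25.7% of genes passed. Both libraries were picked for their correlations with the groups, so the passes without them give no separate support.

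Among the other genes of alternative activation, the programme that IL-4 and IL-13 induce in macrophages, 0 of 14 tested passed with edgeR, 4 had an unadjusted p under 0.05, and DESeq2 called 2 lower and limma none. Fold changes were negative for 8 and positive for 6, with a median of -0.15 on the log2 scale. Mgl2, a galactose-type lectin, had a log2 fold change of -1.51 ± 0.38 (adjusted p = 0.0697, edgeR), and Chil4, a chitinase-like protein, one of -4.13 ± 1.23 (adjusted p = 0.107, edgeR). Chil4 has a near-identical paralog, Chil3, and the division of reads between them is uncertain. In the ACD model 0 of 14 passed with edgeR, 4 had an unadjusted p under 0.05, DESeq2 called 1 lower and limma none. Fold changes in ACD were negative for 8 and positive for 6 (median -0.04). The smallest p-values there were those of Clec10a, another lectin (-0.69 ± 0.15, adjusted p = 0.14, edgeR), and Mgl2 (-0.61 ± 0.22, adjusted p = 0.27).

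The receptors did not move as a block in the AD model. Mertk, the apoptotic-cell receptor, had 60.5, 64.6, 57.0, 50.4 and 66.9 CPM in SB415286 ears, against 31.6, 27.2, 55.0, 45.0 and 58.1 CPM in controls. The SB415286 libraries were tightly grouped, and only 2 of the 5 controls overlapped them. The log2 fold change of 0.47 ± 0.20 did not pass edgeR's test after adjustment (unadjusted p = 0.0422, adjusted p = 0.23). Adgre1 had 42.3, 48.0, 52.9, 39.2 and 54.1 CPM in SB415286 ears, against 90.1, 48.6, 66.4, 57.7 and 37.7 CPM in controls, with a log2 fold change of -0.35 ± 0.21 (adjusted p = 0.37, edgeR). Control 1 was the highest of these libraries and control 6 the lowest.

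The endocytic receptors, the lysosomal marker and the CSF1 receptor differed by less than the spread between libraries. Mrc1 ranged from 351 to 770 CPM in AD SB415286 ears (median 432), against 378 to 551 CPM in controls (median 472), and its log2 fold change was 0.11 ± 0.22, or -0.08 without SB415286 library 7, the highest. Cd163 ranged from 188 to 313 CPM in SB415286 ears and from 185 to 294 CPM in controls (0.17 ± 0.17). Cd68 ranged from 187 to 294 CPM in SB415286 ears and from 161 to 221 CPM in controls (0.28 ± 0.15, adjusted p = 0.307, edgeR). Csf1r was close to level, with 225 to 302 CPM in SB415286 ears and 209 to 321 CPM in controls (0.03 ± 0.14). The 95% interval of the Csf1r log2 fold change ran from -0.25 to 0.31.

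The C1q genes had wide and overlapping groups in the AD model. C1qa had 376, 447, 447, 307 and 553 CPM in AD SB415286 ears, against 442, 287, 490, 330 and 301 CPM in controls. C1qb ranged from 248 to 518 CPM in SB415286 ears and from 252 to 425 CPM in controls, and C1qc from 252 to 493 CPM in SB415286 ears and from 241 to 405 CPM in controls. Their log2 fold changes were 0.20 ± 0.19, 0.19 ± 0.21 and 0.22 ± 0.20 (C1qa, C1qb, C1qc). SB415286 library 7 was the highest of its group for all of them and library 6 the lowest.

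**Figure D2:**
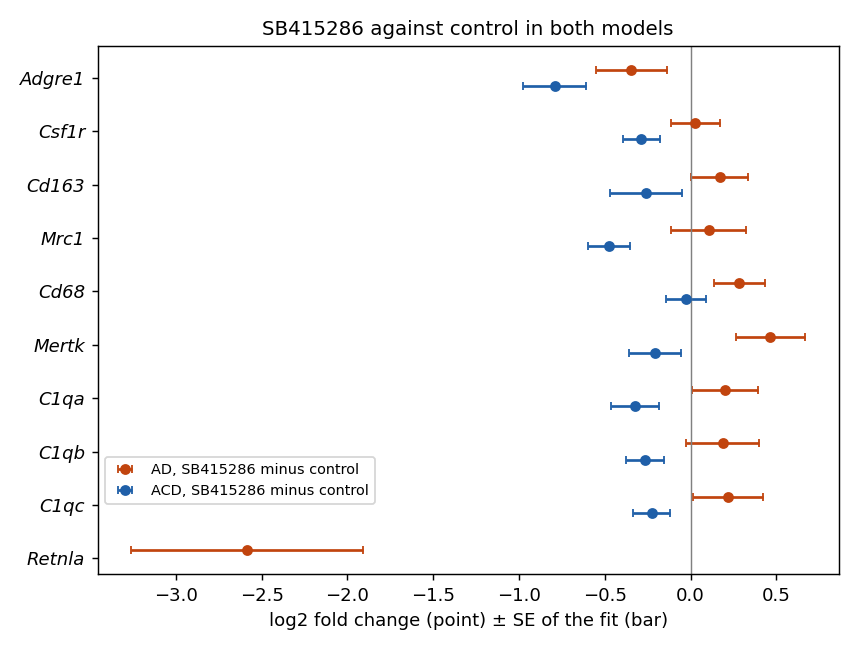
Log2 fold change of each resident macrophage gene, SB415286 minus control, in the AD model (red) and the ACD model (blue), with bars for the standard error of edgeR's fit (5 libraries per group). In AD 8 of 10 points lie above 0 and in ACD all 9 tested lie below 0, and no point passed the adjusted threshold; Retnla was not tested in ACD because of its low counts.

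The same question was asked in the ACD model, at the higher dose. Of the 9 genes that passed the filter on low counts, all 9 had a negative log2 fold change, from -0.79 for Adgre1 to -0.02 for Cd68, with a median of -0.27 against -0.00628 over all genes. None of the 9 passed edgeR's quasi-likelihood test after Benjamini-Hochberg adjustment, where 0.0264% of 15150 genes tested did (4 genes). At an unadjusted p under 0.05 there were 5 of 9, against 13.8% of all genes. DESeq2 called 2 (Adgre1 and Mrc1), where it called 3.65% of the genes it gave an adjusted p, and limma on FPKM values none, where it called 0.0925% of the genes it tested. No member had all its SB415286 libraries below all its controls, a pattern found in 1.59% of all genes. With each library left out in turn, 8 or 9 of the 9 stayed negative, and the exception was Cd68.

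Adgre1, the F4/80 gene, had the largest difference. It had 52.2, 81.6, 38.8, 55.1 and 38.7 CPM in ACD SB415286 ears, against 85.9, 102, 90.2, 104 and 80.3 CPM in controls. Of the 5 SB415286 libraries, 4 were below all controls, and library 4 overlapped the lowest of them. The log2 fold change was -0.79 ± 0.19, with an adjusted p of 0.161 with edgeR and 0.00397 with DESeq2. Without SB415286 library 4 it was -0.999 (adjusted p = 0.0273, edgeR), where 0.0459% of genes passed (7 genes).

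Within libraries, Adgre1 was also lower relative to Csf1r. The ratio of Adgre1 to Csf1r reads was 0.194, 0.237, 0.147, 0.158 and 0.150 in ACD SB415286 ears, against 0.261, 0.257, 0.247, 0.258 and 0.252 in controls. The groups did not overlap, including for SB415286 library 4, and the controls lay within a narrow band. Of the 15150 genes tested, 0.00660% (1 gene, Adgre1) had a lower ratio to Csf1r without overlap, and 4.48% had a higher one, Csf1r itself having a negative fold change. In the AD model the same ratio was 0.159 to 0.195 in SB415286 ears and 0.162 to 0.281 in controls, where control 6 was the only control within the SB415286 range. The ratio was chosen after the values were seen and was not tested.

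**Figure D3:**
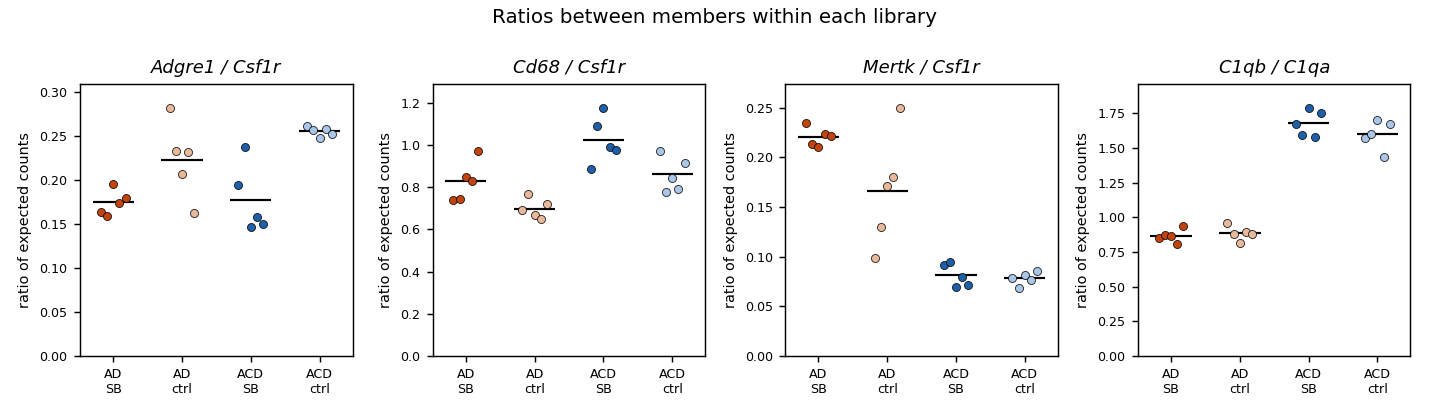
Ratios of expected counts between members of the gene set within each library, for 4 pairs of genes, with SB415286 (SB) and control (ctrl) groups of each model; points are libraries and lines group means. Adgre1 over Csf1r does not overlap between the ACD groups (0.147 to 0.237 in SB415286 ears, 0.247 to 0.261 in controls), and C1qb over C1qa separates the models but not the treatment groups.

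Among the other receptors in ACD, Mrc1 had the largest difference. Mrc1 had 292, 435, 277, 316 and 311 CPM in SB415286 ears, against 483, 521, 401, 439 and 422 CPM in controls, with a log2 fold change of -0.47 ± 0.12 (adjusted p = 0.17 with edgeR, 0.0159 with DESeq2). Again 4 SB415286 libraries were below all controls, and library 4 was not. Csf1r had 269, 344, 264, 349 and 258 CPM in SB415286 ears, against 329, 395, 365, 402 and 319 CPM in controls (-0.29 ± 0.11, adjusted p = 0.288, edgeR). Cd163 ranged from 87.9 to 196 CPM in SB415286 ears and from 101 to 177 CPM in controls (-0.26 ± 0.21), with library 4 the highest of all 10. Mertk ranged from 18.3 to 32.7 CPM in SB415286 ears and from 26.0 to 30.9 CPM in controls (-0.21 ± 0.15).

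Cd68 was the member that differed least. It had 238 to 376 CPM in ACD SB415286 ears (median 311), against 292 to 320 CPM in controls (median 309), with a log2 fold change of -0.02 ± 0.12 and a 95% interval from -0.25 to 0.20. The ratio of Cd68 to Csf1r was 0.885 to 1.18 in SB415286 ears and 0.778 to 0.973 in controls, and in the AD model it was 0.742 to 0.975 in SB415286 ears and 0.649 to 0.769 in controls, with overlap in both.

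All C1q genes had negative fold changes of similar size in ACD. C1qb had 481, 698, 475, 597 and 472 CPM in SB415286 ears, against 621, 659, 708, 669 and 615 CPM in controls. C1qa ranged from 266 to 438 CPM in SB415286 ears and from 367 to 465 CPM in controls, and C1qc from 319 to 449 CPM in SB415286 ears and from 408 to 484 CPM in controls. SB415286 libraries 3, 5 and 8 were below all controls for each of these genes, library 7 was so for C1qb alone, and library 4 overlapped the controls throughout. The log2 fold changes were -0.33 ± 0.14 for C1qa, -0.27 ± 0.11 for C1qb and -0.23 ± 0.11 for C1qc, with adjusted p-values of 0.334, 0.328 and 0.378 (edgeR).

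Retnla was too low for the test in ACD. It had 0.0991, 1.30, 0.216, 0.299 and 0.103 CPM in SB415286 ears, against 0.293, 0.794, 0.373, 0.200 and 0.0501 CPM in controls, or 40 and 34 reads in all. Both groups spanned similar ranges, and 1 library, SB415286 library 4, held most of the SB415286 reads. Without the filter its log2 fold change was 0.24 ± 0.76 (adjusted p = 0.927, edgeR), with a 95% interval from -1.25 to 1.73.

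Other members of the pathways these genes belong to were examined from lists. To set beside the list counts here and below, 20.1% of all genes in AD and 13.8% in ACD had an unadjusted p under 0.05 (edgeR). DESeq2 called 7.68% (AD) and 3.65% (ACD) of the genes it gave an adjusted p, and limma 1.68% and 0.0925%. Of 29 other macrophage markers tested in each model, 0 passed with edgeR in either; 20 fold changes were positive in AD (median 0.21) and 23 negative in ACD (median -0.17). Unadjusted p-values under 0.05 numbered 11 in AD and 3 in ACD, DESeq2 called 1 higher and 1 lower in AD and none in ACD, and limma none in either. In AD the smallest p-values were those of Fcrls, an Fc receptor-like protein (-3.00 ± 0.75, adjusted p = 0.0716, edgeR), and of Trem2, a lipid-sensing receptor of macrophages (0.74 ± 0.19, adjusted p = 0.0725). Fcrls was low and its groups overlapped, at 0.316 to 0.851 CPM in AD SB415286 ears and 0.534 to 15 CPM in AD controls. In ACD they were those of Marco, a scavenger receptor (-0.82 ± 0.28, adjusted p = 0.257), and of Cd14, the lipopolysaccharide co-receptor (0.61 ± 0.22, adjusted p = 0.264).

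Ligands of the receptors and the macrophage transcription factors gave 1 call between them. Of 5 ligands tested, 0 passed with edgeR in AD (1 at an unadjusted p under 0.05, and 1 each with DESeq2 and limma) and 0 in ACD (2 unadjusted, 1 with DESeq2, 0 with limma). Il34, the keratinocyte-derived ligand of Csf1r, had a log2 fold change of -0.58 ± 0.15 in AD (adjusted p = 0.0737, edgeR), and Pros1, which encodes protein S, one of -0.18 ± 0.05 in ACD (adjusted p = 0.205). Of 11 transcription factors, Maf, a factor of differentiated macrophages that other cells also express, fell in AD (-0.45 ± 0.09, adjusted p = 0.0487, edgeR), to 115 ± 10.2 CPM in SB415286 ears, against 157 ± 13.9 CPM in controls (SD, n = 5 each). The Maf call was held in 2 of the 10 fits that left out a library, those without SB415286 library 7 or control 6, and over all 10 the adjusted p ran from 0.0133 to 0.135 (log2 fold change -0.50 to -0.42). In AD 8 of the 11 fold changes were positive and 3 negative, and 3 had an unadjusted p under 0.05. DESeq2 called 1 higher and 1 lower, and limma called 1. After Maf, the smallest p-values in AD were those of Mitf (0.57 ± 0.14, adjusted p = 0.0642, edgeR) and Nr1h3 (0.53 ± 0.21, adjusted p = 0.191). None of the 11 passed in ACD with edgeR, 3 had an unadjusted p under 0.05, DESeq2 called 1 and limma none.

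Classical complement genes beyond C1q were largely negative in ACD. Of 9 tested, 8 had a negative log2 fold change (median -0.27), 0 passed with edgeR, 7 had an unadjusted p under 0.05, DESeq2 called 5 lower and limma called 1. C2, the protease cleaved to form the C3 convertase, had a log2 fold change of -0.61 ± 0.09 (adjusted p = 0.0579, edgeR), and C1s1, a protease of the C1 complex, one of -0.36 ± 0.08 (adjusted p = 0.131). In AD 0 of 11 passed with edgeR, 6 had an unadjusted p under 0.05, neither DESeq2 nor limma called any, and the signs were mixed (6 positive, 5 negative). C1s2, a near-identical copy of C1s1 with which it may share reads, had a log2 fold change of -1.10 ± 0.26 (adjusted p = 0.0646), and C3, the central component, one of 0.48 ± 0.18 (adjusted p = 0.178). C1s2 was very low, at 0.299 ± 0.101 CPM in AD SB415286 ears and 0.645 ± 0.0585 CPM in AD controls (SD, n = 5 each). Of 14 genes of apoptotic cell uptake, 0 passed with edgeR in either model, with 4 in AD and 2 in ACD at an unadjusted p under 0.05, and 1 (AD) and 0 (ACD) called by DESeq2 and none by limma. Timd4, a phosphatidylserine receptor of resident macrophages, had a log2 fold change of 1.28 ± 0.37 in AD (adjusted p = 0.101, edgeR).

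Markers of other cell types moved with treatment as follows, and their part in the results above was not tested. The summed level of 12 neutrophil markers was 5736 to 8776 CPM in ACD SB415286 ears and 3059 to 5451 CPM in ACD controls, without overlap. However, 0 of 12 passed with edgeR (6 at an unadjusted p under 0.05, 2 called by DESeq2, none by limma). Fold changes were positive for 11 and negative for 1, with the smallest p-values for S100a9 (0.778 ± 0.184) and S100a8 (0.728 ± 0.188). Cxcr2 (0.265 ± 0.185), Csf3r (0.186 ± 0.188) and Ltf (-0.119 ± 0.395) had unadjusted p-values of 0.18, 0.344 and 0.769 (edgeR). A sum of CPM follows its most abundant genes, so the gap does not show a shift shared by all these markers. In AD the summed level of the neutrophil markers was 300 to 1028 CPM in SB415286 ears and 306 to 650 CPM in controls. The sum of 10 skeletal muscle markers was 104 to 2388 CPM in AD SB415286 ears, lowest in library 7, and 1356 to 2957 CPM in AD controls. The summed level of the 9 monocyte markers was 1118 to 1701 CPM in ACD SB415286 ears and 1192 to 1514 CPM in ACD controls. Among the 9 monocyte markers in AD, 6 fold changes were negative and 0 passed with edgeR (2 at an unadjusted p under 0.05, 1 called higher and 1 lower by DESeq2, none by limma). Ccr2, the chemokine receptor of inflammatory monocytes, had 8.71 ± 8.36 CPM in AD SB415286 ears and 36.2 ± 28.3 CPM in AD controls (-2.05 ± 0.66, adjusted p = 0.127, edgeR).

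An adipocyte and a cartilage marker fell in AD. Car3, a carbonic anhydrase abundant in fat, had 76.5 ± 29.7 CPM in SB415286 ears and 234 ± 84.3 CPM in controls (SD, n = 5 each), a log2 fold change of -1.62 ± 0.30 (adjusted p = 0.0461, edgeR). It was the 1 call among 10 adipocyte markers, 7 of them with negative fold changes, whose summed level was 769 to 1052 CPM in SB415286 ears and 561 to 1058 CPM in controls. The next smallest p-values of that list went the other way, for Lpl (1.05 ± 0.24) and Fabp4 (0.85 ± 0.20), with an adjusted p of 0.0616 each (edgeR). Sox9, the transcription factor of chondrocytes, had 26.4 ± 5.01 CPM in SB415286 ears and 54.0 ± 15.4 CPM in controls (-1.03 ± 0.21, adjusted p = 0.0488, edgeR). Of 10 cartilage markers 8 were tested and 7 had negative fold changes (median -1.41), and the sum of all 10 was 377 to 494 CPM in SB415286 ears and 414 to 648 CPM in controls. Each call was held in 2 of the 10 fits that left out a library, those without SB415286 library 7 or control 6, and the adjusted p ran from 0.0137 to 0.135 for Car3 and from 0.0114 to 0.135 for Sox9 (edgeR). Fat is among the tissues that transcribe Retnla, and the part of these markers in the Retnla difference was not tested. None of the lists of other cell types given here had a marker at 0 in every library of a group. In the list of mast cell and eosinophil markers, not described here, Epx was at 0 in every AD control and every ACD SB415286 library.

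An interaction term tested whether the effect of SB415286 differed by model, in 1 fit of the 20 libraries, in which dose and model change together. None of the 10 genes passed edgeR's quasi-likelihood test after adjustment, where 0.0510% of 15700 genes did, and neither DESeq2 (1.03% of genes called) nor limma (0.0735%) called any. At an unadjusted p under 0.05 there were 4 of 10, against 12.6% of all genes: Mertk (-0.67, adjusted p = 0.31), Mrc1 (-0.57, 0.372) and C1qa (-0.52, 0.396) were more negative in ACD, and Retnla was more positive (2.83 ± 1.10, 0.295). The difference was negative for 9 of 10 genes, with a median of -0.44 against 0.00795 over all genes, and stayed so in each of the 20 fits that left out a library. Retnla had failed the filter on low counts in the ACD fit, with 40 reads in SB415286 libraries and 34 in controls. Its difference ran from 1.67 to 3.41 with a library left out.

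Many more genes differed between the controls of the models. Among ACD controls against AD controls, 5 of the 10 genes were higher and 3 lower, where 29.5% of 15700 genes were called higher and 32.0% lower with edgeR's quasi-likelihood test. The lower share is near its background, and nothing particular to these genes is read from either. Model, deposited table and any sequencing run cannot be told apart. C1qb was higher by 1.04 ± 0.18 on the log2 scale (adjusted p = 6.92e-05, edgeR), with 654 ± 38.1 CPM in ACD controls and 327 ± 79.8 CPM in AD controls (SD, n = 5 each). Cd68 was higher by 0.79 ± 0.14 (310 ± 11.4 CPM in ACD controls, 185 ± 29.9 CPM in AD controls), Adgre1 by 0.66 ± 0.21, Csf1r by 0.49 ± 0.13 and C1qc by 0.49 ± 0.17. C1qc lost its call without AD control 2 (0.40, adjusted p = 0.0539, edgeR) or without AD control 6 (0.41, adjusted p = 0.0532).

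Cd163, Mertk and Retnla were lower in ACD controls. Cd163 had 149 ± 28.8 CPM in ACD controls and 245 ± 43.4 CPM in AD controls (-0.67 ± 0.20, adjusted p = 0.00776, edgeR). Mertk had 28.1 ± 2.04 CPM in ACD controls and 43.4 ± 13.7 CPM in AD controls (-0.58 ± 0.19, adjusted p = 0.0117). Retnla had 0.342 ± 0.280 CPM in ACD controls and 4.70 ± 5.55 CPM in AD controls (-3.71 ± 0.76, adjusted p = 0.000379). It had failed the filter on low counts in the ACD fit, and passed it in the fit of 20 libraries, which includes the AD controls. Of its 486 reads in AD controls 300 were in control 1, and without that library the log2 fold change was -2.65. Mrc1 (-0.04, adjusted p = 0.86) and C1qa (0.19, adjusted p = 0.345) did not pass. For Cd68, C1qb and C1qc every ACD control was above every AD control, which was so for 21.0% of all genes, and for Cd163 and Retnla every ACD control was below, which was so for 26.4%.

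The C1q genes, which encode chains of 1 protein, did not keep their proportions between the models. The ratio of C1qb to C1qa reads was 1.44 to 1.70 in ACD controls and 0.817 to 0.962 in AD controls, and in SB415286 ears it was 1.58 to 1.79 in ACD and 0.809 to 0.937 in AD. Treatment groups overlapped within each model. The transcript length implied by counts and FPKM was the same in both tables (1055 bases for C1qb, 1033 for C1qa and 1008 for C1qc), so a change of annotated length was not seen. The share of expected counts that were whole numbers was 64.8% to 66.9% in AD libraries and 36.6% to 43.5% in ACD libraries, and its part in the ratio was not tested. Mertk over Csf1r also separated the models, at 0.0679 to 0.0854 in ACD controls and 0.0986 to 0.249 in AD controls.

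Other lists moved in both directions between the controls, and their part in the members' differences was not tested. All 12 neutrophil markers were higher in ACD controls (median 3.57 on the log2 scale), as were 6 of 9 monocyte markers. Ace, which marks nonclassical monocytes and also endothelium, was lower (-1.35 ± 0.17, adjusted p = 3.74e-06, edgeR). Higher too were 16 of 30 other macrophage markers, led by Cd14 (3.65 ± 0.34), the pore-forming protein Mpeg1 (2.05 ± 0.20), the signalling adaptor Tyrobp (2.29 ± 0.24) and the Fc receptor Fcgr3 (1.81 ± 0.21). A further 6 macrophage markers were lower. Of 11 transcription factors 4 were higher, among them Spi1, which encodes PU.1 (1.84 ± 0.23), and 6 lower, among them Mitf (-0.84 ± 0.13). Of 14 alternative activation genes 7 were higher and 4 lower. Retnlg, a paralog of Retnla made by neutrophils and also counted among the neutrophil markers, was higher by 4.94 ± 0.46. Il4ra was higher by 1.34 ± 0.26, and Chil4 (-7.00 ± 1.19) and Mgl2 (-1.47 ± 0.33) were lower. Of 11 complement genes C1ra, which has a near-identical copy, and C1rl were higher and 4 lower, led by C3 (-1.06 ± 0.14), and of 14 uptake genes 2 were higher and 7 lower.

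Within groups, most of the genes deviated in the same libraries. Deviations of log2 CPM from the group mean correlated most closely, over the 20 libraries, between C1qb and C1qc (Pearson r = 0.97), C1qa and C1qb (0.96) and C1qa and C1qc (0.94), and Csf1r was nearest to C1qa (0.93). The weakest pairs involved Mertk, with Retnla (0.00372), Mrc1 (0.21) and Adgre1 (0.24). These values are a description, since genes of a library share its depth and cell make-up. ACD SB415286 library 4 was on average 0.44 above its group mean over the 9 genes other than Retnla, while the other libraries of that group lay between -0.22 and 0.16.

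Among 14498 genes with at least 1 CPM, the nearest patterns were sought for each member in the same way. Cd68 was nearest to Grn, which encodes progranulin (r = 0.94), Necap2 (0.92) and Map1s (0.91). Adgre1 was nearest to Prcp, a lysosomal carboxypeptidase (0.92), Hexa, a subunit of lysosomal beta-hexosaminidase (0.91), and Plxnc1 (0.91). Mrc1 was nearest to Ccdc102a (0.93), Pgap6 (0.90) and Hfe (0.89), Cd163 to Stard8 (0.88), Gab3 (0.83) and St3gal3 (0.83), and Mertk to Serinc3 (0.90), Cped1 (0.85) and Slc43a2 (0.85). Beyond each other and C1qa, the C1q genes shared Cd79b (0.94 with C1qb, 0.92 with C1qc), and C1qa and Csf1r shared Iqgap2 (0.95 and 0.90). Retnla was nearest to Arl5c (0.82), Ccr3, the eotaxin receptor of eosinophils (0.79), and Fcgrt (0.78).

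**Figure D4:**
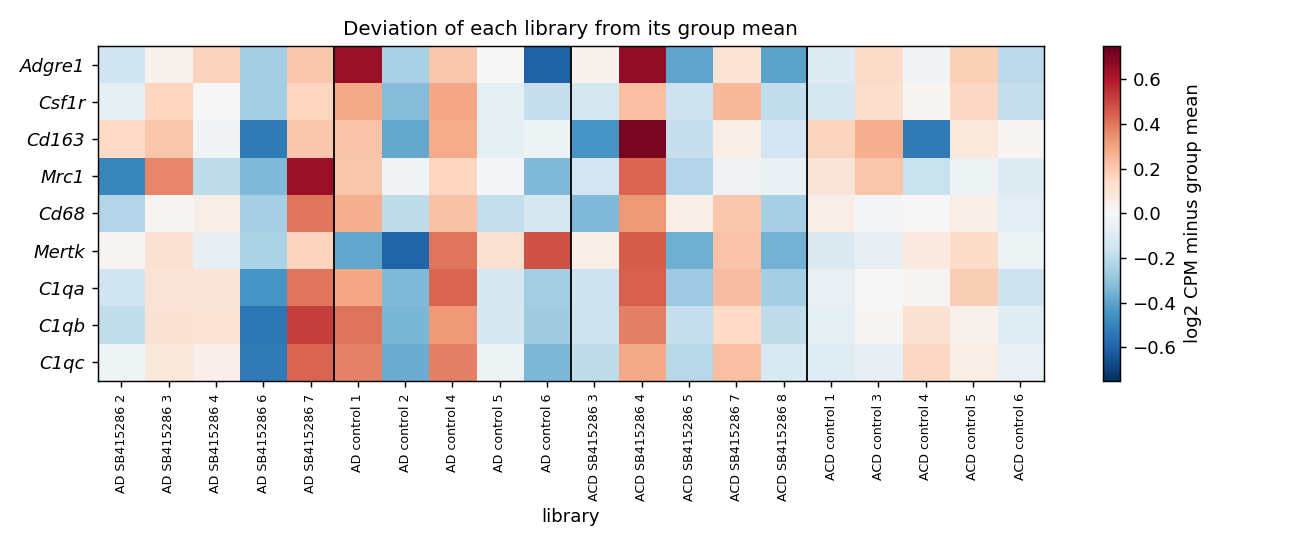
Deviation of log2 CPM from the group mean for 9 resident macrophage genes (Retnla left out) in each of the 20 libraries, with groups separated by vertical lines; red is above and blue below the mean. ACD SB415286 library 4 is above its group mean for all 9 genes and AD SB415286 library 6 below for all 9.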

How the data were processed

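RNA of 20 ear libraries was analysed from 1 deposited table per model. Per the labels, libraries were sequenced on the MGISEQ-2000. The authors' expected counts per gene are not normalised, and the authors' FPKM values are scaled by length and sequencing depth, per the file headers. Per the submitters' processing notes, the tools were RSEM 1.2.8, Bowtie2 2.2.5, HISAT and HISAT2, and the assemblies GRCm38.p6 and GRCh38.p13. Their roles are not given in the sources used here. The tables also hold 20 TPM columns and 18 columns of group averages, which were not used.

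Expected counts were rounded and tested in R 4.3.3 with edgeR 4.0.16 (filterByExpr by group, TMM scaling, robust quasi-likelihood fit, 2-sided, Benjamini-Hochberg adjustment over all genes tested, adjusted p under 0.05). CPM values use TMM factors. Each model was fitted alone (10 libraries), and contrasts between models were fitted on all 20 libraries over the genes in both tables. The alternatives were other scalings and filters, DESeq2 1.42.0, limma 3.58.1 on log2(FPKM + 1) and log2(FPKM + 0.1), 1 fit of all libraries, the title number as a block and libraries left out. The fits were tested on simulated data.

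Named genes are the 10 members, up to 4 genes past the threshold in each list or otherwise those with the smallest p, and the 3 genes nearest to each member by Pearson r of log2 CPM (offset 0.5) deviations from group means. The members and lists were chosen with earlier results of these data known. No duplicated library was found, since the lowest chi-square per degree of freedom between replicates was 11.4. Precision is limited by 5 libraries per group and, for Retnla, by its low counts.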

Additional observations from a re-analysis of the deposited data

Results flagged for a closer look

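Dixon's test at the 95% level (critical value 0.71 for 5 libraries) picked out 3 of 40 gene and group combinations, where chance gives about 1 in 20. Retnla in AD control 1 stood at 14.53 CPM, and the gap to the next control was 0.84 of the range of the group. Retnla in ACD SB415286 library 4 stood at 1.2979 CPM (0.833 of the range), on 26.1 reads. Mrc1 in the same library stood at 435.29 CPM (0.752 of the range).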

How the results depend on the processing

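The number of genes called varied more than the members' values. For AD SB415286 against control, 187 genes were called in the main analysis, 1235 with DESeq2, 48 without a filter, 0 with the replicate block, 1461 in 1 fit of all libraries, 3894 without AD control 6 and SB415286 library 7, and 0 to 1423 with 1 library left out. Of the members, 1 was called with DESeq2, in the joint fit and without both libraries, and 0 to 1 with 1 library left out. For ACD, 4 genes were called in the main analysis, 13 with upper quartile scaling, 394 with DESeq2, 1 with the replicate block, 12 with either FPKM pseudocount and 2 to 18 with 1 library left out; of the members, 2 with DESeq2 and 0 to 1 with 1 library left out. For the difference between models, 8 genes were called, 14 with upper quartile scaling, 163 with DESeq2, 5 without a filter, 1 with the replicate block, 2117 without both AD libraries and 1 to 312 with 1 library left out.

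Signs turned in AD for Csf1r (-0.00887 with upper quartile scaling, -0.0315 and -0.0318 with FPKM pseudocounts of 1 and 0.1, -0.0661 without both libraries, -0.0497 to 0.102 with 1 left out), for Mrc1 (-0.221 with the replicate block, -0.0199, -0.0207, -0.165, and -0.0831 to 0.217) and for C1qb without both libraries (-0.0341). They also turned with 1 library left out for Cd68 in ACD (-0.114 to 0.0521) and for Mrc1 between controls (-0.116 to 0.0125). The cause was not tested. Over all members, values kept their sign and side of the threshold in 182 (AD), 166 (ACD), 266 (controls) and 280 (difference) combinations of gene and setting. Signs turned in 14 (AD), 2 (ACD) and 2 (controls). Calls were gained in 4 (AD) and 3 (ACD) and lost in 2 (controls), those of Retnla, Adgre1, Mrc1 and C1qc given above. Counts of signs across settings, and the ratios, were chosen after seeing the data. The title numbers did not pair the libraries: same-numbered deviations correlated at -0.224, -0.242 and 0.288 in AD and -0.206, -0.0334 and 0.205 in ACD. The block could not be fitted between controls of the models. Values near or below 1 CPM, such as those of Retnla, are limited by depth.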

Other observations

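Langerhans and dendritic cell markers, the other resident antigen-presenting cells of skin, had 9 of 12 negative fold changes in AD (median -0.57 on the log2 scale), and 1 of 12 fell with edgeR's quasi-likelihood test. It was Cd207, which encodes langerin of Langerhans cells, with 2.30 ± 0.763 CPM in AD SB415286 ears and 9.41 ± 5.14 CPM in AD controls (SD, n = 5 each; -2.03 ± 0.42 on the log2 scale, adjusted p = 0.0493, edgeR). The call was held in 2 of 10 fits that left out a library, those without SB415286 library 7 or control 6, with adjusted p-values from 0.0114 to 0.135 over the 10. In ACD 6 of 12 were negative (median 0.01) and 0 passed with edgeR (3 at an unadjusted p under 0.05, none with DESeq2 or limma). All 10 T cell markers tested in AD had negative fold changes (median -0.79), of which 0 passed with edgeR, 3 had an unadjusted p under 0.05, DESeq2 called 1 and limma none. Their summed level was 24.5 to 74.4 CPM in AD SB415286 ears and 34.4 to 112 CPM in AD controls. In ACD 9 of 10 were negative (median -0.27), 0 passed with edgeR, 5 had an unadjusted p under 0.05, and neither DESeq2 nor limma called any.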
